A study of Mus musculus with 2 samples.

Results

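Genes that encode the cornified envelope and the filaggrin-like proteins of the epidermis were examined on arrays of primary mouse keratinocytes. The set held every gene whose symbol starts with Lce (late cornified envelope) or Sprr (small proline-rich protein), the fused-type genes Flg, Flg2, Hrnr, Rptn and Tchhl1, and Crct1, Lor and Ivl. A probe was assigned through the RefSeq accession it carries. Of 46 such genes in the gene table, 37 had a probe, among 20144 named genes on the array, and they were covered by 43 probes. The 9 without an assigned probe were Flg, Lce1j, Lce1k, Lce3d, Lce3e, Lce6a, Sprr2a1, Sprr2a3 and Sprr2c-ps, and they were not analysed here. The study compared P3 primary keratinocytes of the genotype Rac3-KO, which the labels name as the control, with P3 primary keratinocytes of the genotype Rac1Rac3-DKO. Both genotypes thus carry the loss of Rac3, per the labels, and differ by Rac1. RNA of each genotype was read on 1 one-colour Agilent array, so the differences below could not be set against any replicate, and none was tested. The deleting Cre, its promoter, the allele and any pooling of animals are not given in the sources used here.

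The outermost keratinocytes replace their plasma membrane by a cross-linked protein shell, the cornified envelope, as they flatten into squames. Loricrin, encoded by Lor, is its major protein in mouse epidermis. Involucrin, encoded by Ivl, serves as an early scaffold, and small proline-rich and late cornified envelope proteins are cross-linked to them by transglutaminases. Filaggrin-like proteins of the S100 fused type gather keratin filaments in the cells just below. Most of these genes lie side by side in the epidermal differentiation complex, on chromosome 3 in the mouse. Sprr genes are also known for rising in stressed or wounded epithelia, and Lce3 genes for their response to barrier disruption.

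Levels are log2 processed signals relative to the 75th percentile of each array, and differences are the DKO-labelled level minus the Rac3-KO level. That percentile was a signal of 705 (Rac3-KO) and 354 (DKO-labelled), a log2 step of -0.99, so a gene with equal signals on the arrays before scaling is higher on the DKO-labelled array after it. Error bars are the scanner software's signal error on the log2 scale, a technical error with a median of 0.20 on a difference. The array number limits the precision of every value. Rac1 probes differed by 0.28 and -0.12 and the Rac3 probe by 0.24, with signal errors of 0.20, 0.20 and 0.24, so the probes do not show the deletion that the labels name, and whether they lie within it was not tested. Both arrays also held strong signals of muscle, fibroblast, fat and red cell genes, whose values are given beside the keratinocyte results. In bulk RNA of this kind, fewer keratinocytes and less RNA per keratinocyte cannot be told apart.

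Most Lce and Sprr genes gave no signal well above background on either array. Of the 37 genes, 10 (27.0%) were measured on both arrays at their representative probe, the probe with the highest mean level, whereas 70.2% of all named genes were. A further 3 passed background with Rac3-KO RNA alone, 2 with DKO-labelled RNA alone, and 22 (59.5%) with neither, against 4.26%, 1.14% and 24.3% of all named genes. By probe, 16 of 43 passed with Rac3-KO RNA and 14 with DKO-labelled RNA. The 25 probes that were not on either had processed signals of 4.87 to 25.5 and 4.13 to 18.5, beside a lowest signal well above background of 23.4 and 20.1. Their log2 differences, -1.48 to 2.81, are of background signal and were not read as changes. For comparison, the 23108 probes of the array below background on both arrays differed by a median of 0.66. None of the 52 spots of the set was saturated.

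**Figure D1:**
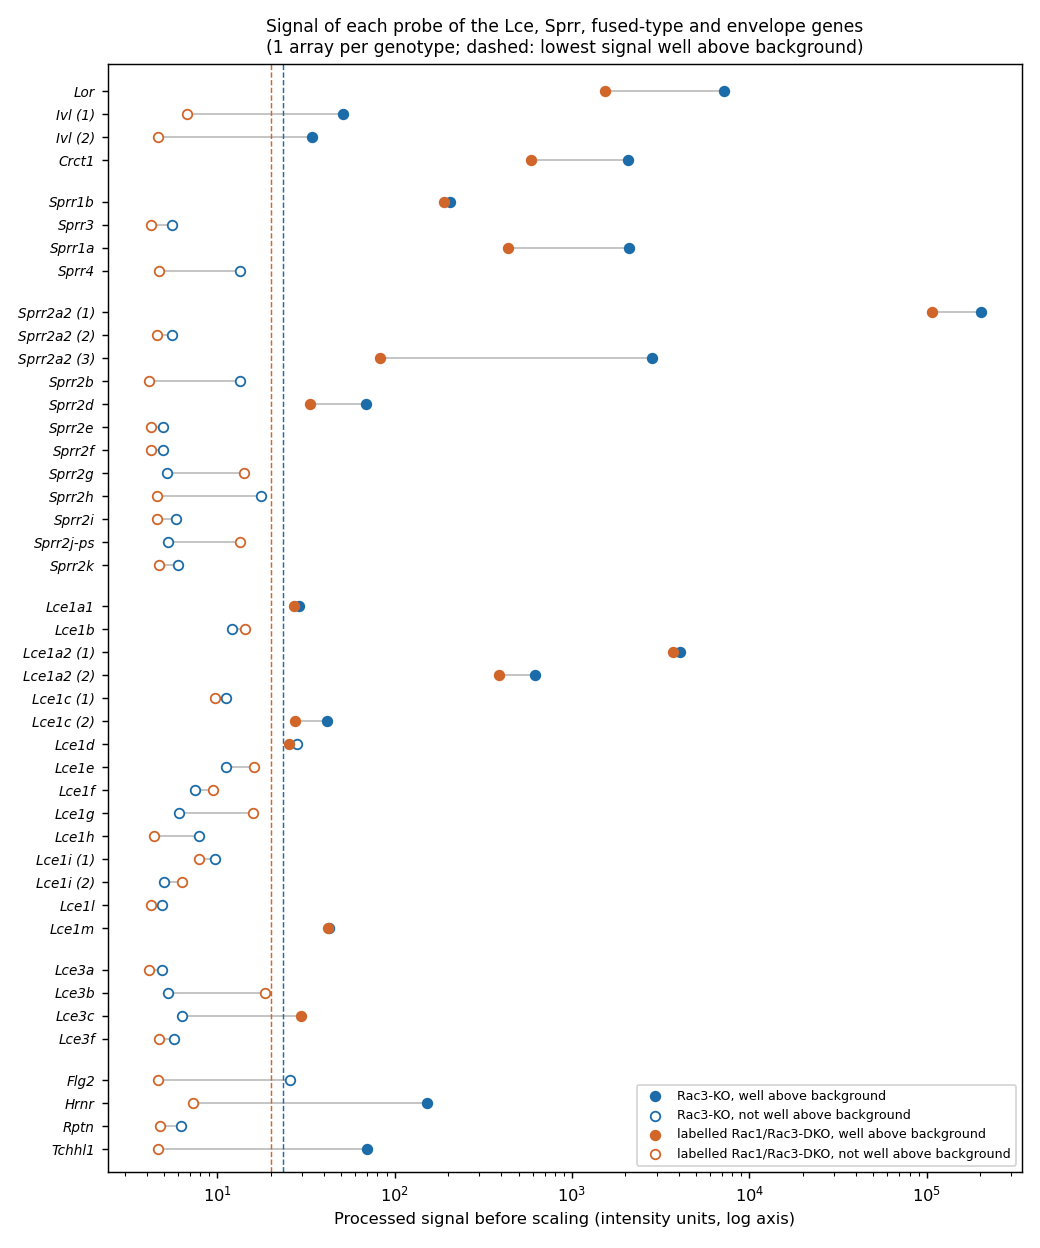
Processed signal before scaling (intensity units, log axis) of all 43 probes, grouped by gene family, with 1 point per array; filled points are well above background, open points are not, and dashed lines mark the lowest signal well above background on each array, 23.4 and 20.1. The points of Lor, Crct1 and Sprr1a lie apart, those of Sprr1b, Lce1a2 (1) and Lce1m nearly coincide, and most Lce and Sprr2 probes lie left of the dashed lines.

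Loricrin and Crct1 were lower on the DKO-labelled array, and involucrin passed background with Rac3-KO RNA alone. Lor had processed signals of 7179 (Rac3-KO) and 1534 (DKO-labelled), and log2 levels of 3.35 and 2.11. Its difference was -1.23 with a signal error of 0.20, which is 2.35-fold lower. Crct1, the cysteine-rich C-terminal gene of the complex, had signals of 2063 and 584 and a difference of -0.83 with an error of 0.20, short of the 2-fold threshold. Both Ivl probes were dim. The first read 51.0 and 6.76 and the second 34.4 and 4.66, and the first was 2.18 times the lowest Rac3-KO signal well above background. The bound for Ivl was at least 1.28-fold lower, and 2.54-fold before scaling. With normexp background correction its log2 bound was -0.21 in place of 0.35, which gives no fold. The offset of 50 that normexp adds to every signal by itself shrinks ratios of dim signals.

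Sprr1a and Sprr1b differed in opposite directions after scaling, and in the same direction, downward, with spike-in scaling. Sprr1a, an envelope precursor gene also known for rising after injury, had signals of 2098 and 436, a difference of -1.27 with an error of 0.20, or 2.42-fold lower. Sprr1b, its close relative in the same complex, had signals of 205 and 190.1 and a difference of 0.89 with an error of 0.21, a 1.85-fold higher scaled level; on the spike-in scale it was -1.16. The gap between the 2 genes, 2.16 on the log2 scale with an error of 0.29, is the same under any scaling by a constant per array. It was 2.13 with quantile normalization and 1.99 with normexp. This pair was singled out after its values were seen. Sprr3 and Sprr4, a mainly mucosal family member and a gene of stressed skin, were not well above background on either array, with signals of 5.57 and 4.25 for Sprr3 and 13.4 and 4.71 for Sprr4.

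Among the Sprr2 genes, the proline-rich cross-bridging proteins of the envelope, 2 of 10 were measured on both arrays and 8 on neither. Sprr2a2 carried 3 probes whose readings were far apart. The first probe read 202062 (Rac3-KO) and 107242 (DKO-labelled), a difference of 0.08 with an error of 0.20. Another probe of the gene read 2816 and 82.4, a difference of -4.10 with an error of 0.22, or 17.2-fold lower. The last read 5.57 and 4.55 and was not well above background. The measured probes of Sprr2a2 were thus 4.18 apart on the log2 scale, and of 3578 genes with several measured probes 2, Sprr2a2 included, had probes at least so far apart. Between probes of a gene the SD was 0.19 in the median, with a root mean square of 0.38. Sprr2a1, Sprr2a2 and Sprr2a3 are near-identical copies, and which of them each probe reads was not tested, so the Sprr2a readings are uncertain as values of Sprr2a2. Sprr2d, the other measured gene, had dim signals of 69.1 and 33.1 and a difference of -0.07 with an error of 0.29. The 8 not measured were Sprr2b, Sprr2e, Sprr2f, Sprr2g, Sprr2h, Sprr2i, Sprr2j-ps and Sprr2k, with signals of at most 17.7 (Rac3-KO) and 14.1 (DKO-labelled).

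The measured Lce1 genes, which encode envelope proteins added late in cornification, had scaled differences above 0, from 0.39 to 0.99, and below 0 with spike-in scaling. Before scaling their signals were close between the arrays except for Lce1c and the second Lce1a2 probe. Lce1a2 was the only Lce gene with signals far above background. Its probes read 4044 and 3733, and 622 and 390, for differences of 0.88 and 0.32 with errors of 0.20 each. Lce1m read 42.4 and 42.3, a difference of 0.99 with an error of 0.33. Lce1a1 read 28.7 and 27.1, a difference of 0.91 with an error of 0.41, and Lce1c read 41.5 and 27.3, a difference of 0.39 with an error of 0.35. Lce1a1, Lce1c and Lce1m lay within 1.23 to 2.10 times the lowest signal well above background, a range in which background weighs on the ratio. With spike-in scaling Lce1a2 differed by -1.17 and the median of the 4 measured Lce1 genes was -1.16 in place of 0.89. Lce1d passed background with DKO-labelled RNA alone, yet before scaling its signal was lower there, 25.5 beside 28.3. Its bound of at least 1.79-fold higher was 0.902 before scaling, which gives no fold, and its spike-in log2 bound was -1.21.

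The other 7 Lce1 genes were not well above background on either array: Lce1b, Lce1e, Lce1f, Lce1g, Lce1h, Lce1i and Lce1l. Lce1b was spotted 10 times on each array and shows how such a probe scatters. Its 9 retained spots on the Rac3-KO array read 6.36 to 16.5 with a median of 12.0, and the 8 retained on the DKO-labelled array 9.95 to 18.9 with a median of 15.3. None of these spots was well above background, and their SD was 0.42 and 0.37 on the log2 scale. The software marked the remaining spots as outliers, a Rac3-KO spot at 104.0 and DKO-labelled spots at 23.1 and 14.6, and called those at 104.0 and 23.1 well above background.

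Of the Lce3 genes, whose products are late envelope proteins, Lce3c passed background with DKO-labelled RNA and not with Rac3-KO RNA. Its signals were 6.35 (Rac3-KO) and 29.7 (DKO-labelled), the latter 1.48 times the lowest signal well above background there. The scaled bound was at least 2.52-fold higher, and before scaling the same bound was 1.27-fold. On the spike-in scale the log2 bound was -0.71, which gives no fold. Lce3a, Lce3b and Lce3f were not well above background on either array, although the Lce3b signal was 5.24 and 18.5. Lce3 genes resemble each other, so cross-reading between them by a probe was not tested.

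Among the 4 fused-type genes of the set with a probe, Hrnr and Tchhl1 passed background with Rac3-KO RNA alone and Flg2 and Rptn with neither. Hrnr, encoding hornerin, read 152 (Rac3-KO) and 7.28 (DKO-labelled), at least 3.79-fold lower, and 7.54-fold before scaling. With normexp the log2 bound for Hrnr was 0.58 in place of 1.92, short of 2-fold. Tchhl1, a trichohyalin-like gene, read 70.2 and 4.62, at least 1.76-fold lower, and 3.50-fold before scaling. Its normexp log2 bound was 0.00056 in place of 0.81. Normexp here adds an offset of 50 to every signal, which by itself shrinks ratios of dim signals such as these. Flg2, a filaggrin relative, read 25.5 and 4.60, and its Rac3-KO spot was not called well above background. Rptn, encoding repetin, read 6.27 and 4.73. Flg itself had no assigned probe.

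**Figure D2:**
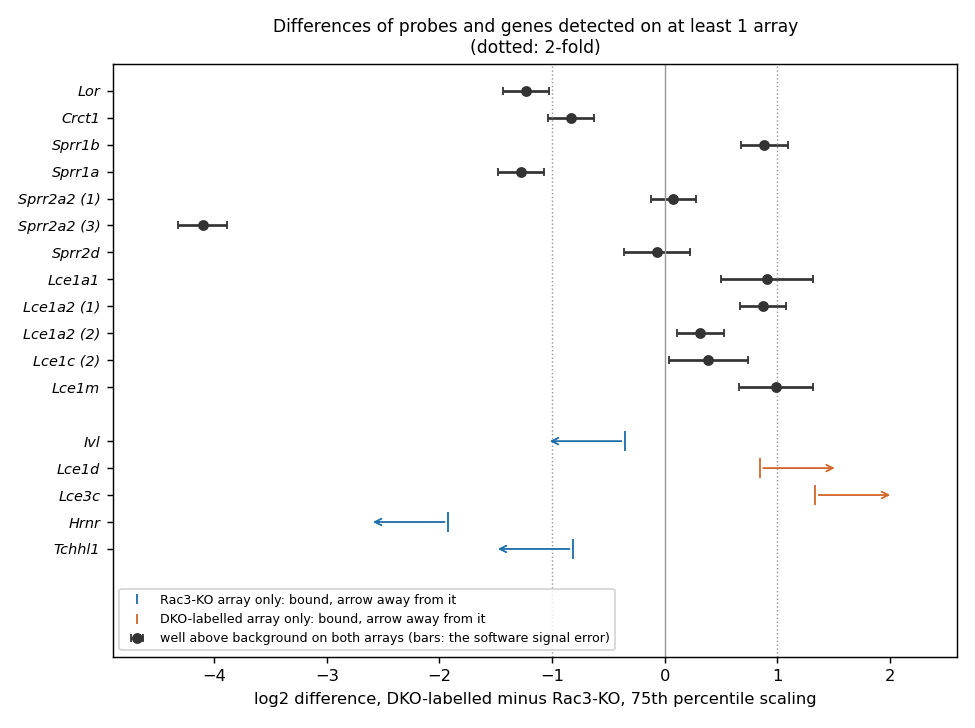
Log2 difference, DKO-labelled minus Rac3-KO after 75th percentile scaling, of 12 probes of the 10 measured genes, with bars of 1 software signal error (technical only), and below them the bound for 5 genes detected on 1 array, with an arrow pointing away from it. Lor at -1.23 and Sprr1a at -1.27 lie beyond the 2-fold line, the Sprr2a2 probes at 0.08 and -4.10 lie far apart, and the Lce1 points lie above 0, where spike-in scaling turns them to below 0.

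Counted over genes, 2 of the 10 measured genes were at least 2-fold lower, Lor and Sprr1a, and 0 were at least 2-fold higher, beside 6.62% lower and 7.71% higher among 14144 genes measured. With 10 genes measured, a count this small was not read against that background. The median difference of the 10 was 0.23, where all measured genes had -0.01. With the stricter filter, which kept Lor, Crct1, Sprr1a, Sprr1b, Sprr2a2 and Lce1a2, the median was -0.37 over 6 genes. Of the genes detected on a single array, Hrnr alone passed an at-least fold of 2 downward and Lce3c alone upward, beside 0.933% and 0.908% of all named genes.

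Along the complex, genes with differences above and below 0 lay among each other. From Lor through Sprr2a2, Sprr2d, Sprr1b, Sprr1a, Ivl and the Lce1 genes to Crct1 and Lce1m, the sign of the scaled difference or bound turned several times. The values of Sprr2a2, 0.08 with an error of 0.20, and Sprr2d, -0.07 with an error of 0.29, lay within their errors. Both changed sign under other settings, so turns at these genes are not settled. The other turns depend on the scaling too. With spike-in scaling all 10 measured genes lay below 0, which leaves no turn among them. The log2 bound of Ivl was -0.21 with normexp, and that of Lce1d was -1.21 with spike-ins. Crct1 and Lce1m are neighbours and lay 1.81 apart on the log2 scale with an error of 0.39, a gap that no constant shift of an array changes; it was 1.70 with quantile normalization and 1.80 with normexp. This pair too was chosen after its values were seen. Lce1m was dim, at 1.81 (Rac3-KO) and 2.10 (DKO-labelled) times the lowest signal well above background, so background weighs on the gap. The stricter filter drops Lce1m and leaves the gap without a value. Of 21 other genes listed for the complex, 16 were measured, with a median of 0.30. Of the 16, 5 differed downward by 2-fold or more and 0 upward, beside 6.62% and 7.71% of all measured genes. The 5 were Tchh, the trichohyalin gene of hair follicle sheaths, at -2.30, Prr9 at -2.25, S100a14 at -1.88, S100a3 at -1.32 and the fused-type gene Crnn at -1.06. At the other end S100a6, a calcium-binding protein gene found in many cell types, differed by 0.89. Prr9 lies next to Lor in the gene table and Tchh next to Tchhl1.

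**Figure D3:**
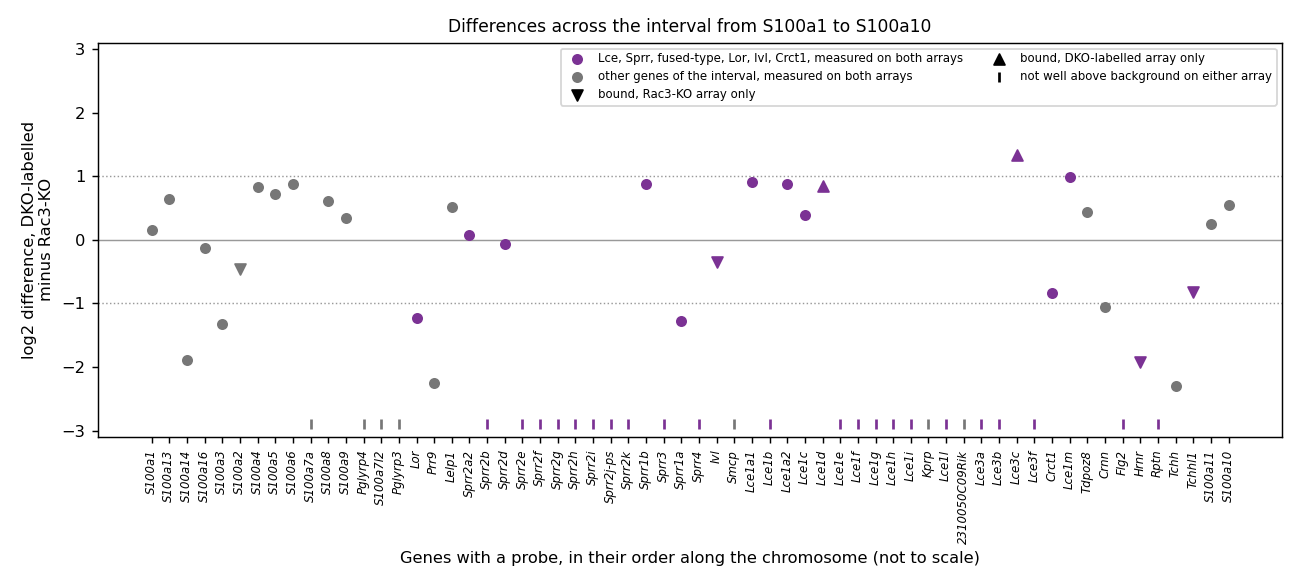
Log2 difference, DKO-labelled minus Rac3-KO, of genes with a probe in their chromosomal order from S100a1 to S100a10 (order only, not distance); circles are genes measured on both arrays, triangles bounds for genes detected on 1 array, and ticks at the bottom genes not well above background on either. Genes below -1, such as Lor, Sprr1a, Prr9 and Tchh, stand among genes above 0, such as Sprr1b and Lce1a2, which spike-in scaling moves below 0.

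Of 25 cornification partners, which cross-link, cleave or anchor envelope proteins, 23 were measured, with a median of -1.35. Of the 23, 15 (65.2%) differed downward by 2-fold or more and 0 upward, beside 6.62% and 7.71% of all measured genes. The protease gene Klk5 differed by -2.78, the filaggrin-processing protease gene Asprv1 by -2.24 and Evpl, encoding the envelope plakin envoplakin, by -2.16. Abca12, a lipid transporter gene, and Cyp4f39 were at least 3.75-fold and 4.45-fold lower. Tgm1, whose transglutaminase cross-links loricrin, differed by -1.26 with an error of 0.24, beside -1.23 for Lor; Tgm1 was picked out after its value was seen. Tgm3, another transglutaminase gene, differed by 0.72. Of 36 transcription regulators of the late epidermal program, 32 were measured, with a median of -0.68. Of the 32, 9 (28.1%) differed downward by 2-fold or more and 0 upward, beside the same 6.62% and 7.71%. Trp63 differed by -1.80 and Tfap2a by -1.79, and Pou2f3 was at least 3.61-fold lower. At the other end Dlx3 differed by 0.83. The 7 Fos and Jun genes, picked out later because they encode AP-1, were -0.84 to 0.23 where measured, 6 of 7, and none was 2-fold apart.

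Markers of keratinocytes and of other cell types moved in opposite directions on the same arrays, and their part in the results above was not tested. Among 11 basal keratinocyte markers the median was -1.53, and 8 differed downward by 2-fold or more, led by Krt15, Krt14 and Col17a1. Only 1 of them lay above 0, Dst at 0.11. Among 9 measured spinous markers the median was -1.67, 7 passed 2-fold downward, and Krt1 and Krt10 differed by -4.95 and -4.50. The other 2 lay above 0, Krt2 at 0.73 and Notch3 at 0.09. All 10 measured hair follicle markers were below 0, and 6 of them were at least 2-fold lower (median -1.25). Among 15 skeletal muscle markers the median was 2.42, and 14 passed 2-fold upward. Fibroblast markers had a median of 0.80 (3 of 11 at least 2-fold higher), leukocyte markers 1.07 (5 of 10), endothelial 0.61 (2 of 8), adipocyte 0.68 (1 of 7) and erythroid 0.78 (1 of 5). None of these lists of other cell types had a member at least 2-fold lower after this scaling. With spike-in scaling, 0 muscle and 0 fibroblast markers were at least 2-fold higher, and 1 and 9 were at least 2-fold lower. On that scale 11 basal and 9 spinous markers were at least 2-fold lower. Cd207 and Lep were not well above background on either array. The summed scaled signal of the DKO-labelled array was 0.128 times that of the Rac3-KO array for spinous markers, 0.367 times for basal markers and 5.47 times for muscle markers.

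**Figure D4:**
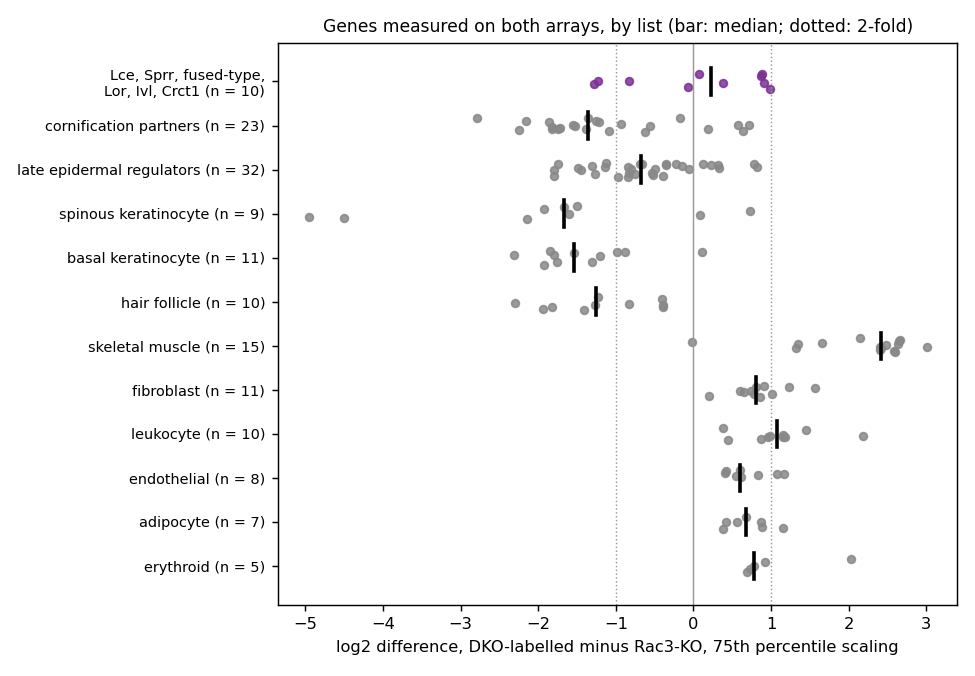
Log2 difference, DKO-labelled minus Rac3-KO after 75th percentile scaling, of each gene measured on both arrays (points), with the median of each list (bar) and dotted lines at 2-fold. The 10 envelope and Sprr or Lce genes spread from -1.27 to 0.99, keratinocyte and cornification lists centre between -1.67 and -1.25, and muscle markers centre at 2.42; spike-in scaling shifts all points by -2.05.

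Promoter windows were read for sequence shared by the families. RefSeq windows of 250 bases before to 50 after the transcript start (GRCm38.p6) were found for 41 of the 46 genes; Crct1, Lce1f, Sprr2c-ps, Sprr2g and Sprr2j-ps had none. They were searched on both strands for TGANTCA, which AP-1 factors bind. The TATA box was searched as TATAAA. The antioxidant response element was searched as TGACNNNGC and can overlap an AP-1 match. The octamer, a site of POU factors, was searched as ATGCAAAT. TGANTCA stood in 15 of 41 windows (36.6%), against 7.81% of 32851 windows in the table. It was found in 9 of 14 Sprr windows and 0 of 20 Lce windows, and also in those of Lor, Ivl, Flg, Flg2, Rptn and Tchhl1. The octamer stood in 7 of 14 Sprr windows, all of Sprr2 genes, and in 0 of 20 Lce windows, against 1.74% of all. TATAAA stood in 10 of 14 Sprr and 4 of 20 Lce windows, against 13.6%, and TGACNNNGC in 2 of 14 and 5 of 20, against 12.4%. The TATAAA matches of Lce1d and Lce1m began at -30 and -29 from the transcript start. Those of Lce6a and Lce3e began at -218 and -243, on the other strand, far from the usual place of a TATA box. The Sprr2 windows are copies of each other to a degree, with a median pairwise identity of 63.1% over aligned windows. Lce1 windows had a median of 65.7% and Lce3 windows 59.5%, while the Lor and Ivl windows aligned at 47.5%. Shifts of the annotated start were counted as differences. The windows of Sprr2, Lce1 and Lce3 are thus not independent counts. Genes detected on at least 1 array held TGANTCA in 6 of 14 windows and undetected genes in 8 of 19. A match describes the letters only, and binding was not measured.

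Windows are shown for the pair at least 2-fold lower, for Sprr1b, which differed from Sprr1a, and for Lce1a2 and Sprr2a2. The last 2 had strong signals, as did Crct1, which has no window. Capitals mark the motifs. The windows lie at chr3:92083093-92083392 (minus strand), chr3:92485832-92486131 (minus), chr3:92438730-92439029 (minus), chr3:92670266-92670565 (minus) and chr3:92250397-92250696 (plus). Lor carries TGANTCA at -48 to -42 and TATAAA at -27 to -22, counted from the transcript start. Sprr1a carries TGANTCA at -146 to -140, where it overlaps TGACNNNGC at -148 to -140, and again at -116 to -110, and TATAAA at -43 to -38. Sprr1b carries TGANTCA at -111 to -105 and TATAAA at -30 to -25. Lce1a2 and Sprr2a2 carry none of the 4 motifs in this window. The Sprr2a2 window ends in a stretch similar, but not identical, to one that stands shortly before TATAAA in the Sprr2b window. Bases past the end of the window were not searched. The Sprr2a1 window is 100% identical to that of Sprr2a2. The Sprr2a3 window is the Sprr2a2 sequence shifted by 28 bases, and all 272 overlapping bases are identical.
Lor: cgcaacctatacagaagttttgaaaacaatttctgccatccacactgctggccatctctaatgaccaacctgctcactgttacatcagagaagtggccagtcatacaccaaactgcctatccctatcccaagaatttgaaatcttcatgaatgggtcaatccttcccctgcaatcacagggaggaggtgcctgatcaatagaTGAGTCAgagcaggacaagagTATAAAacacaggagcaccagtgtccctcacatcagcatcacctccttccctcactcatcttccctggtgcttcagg
Sprr1a: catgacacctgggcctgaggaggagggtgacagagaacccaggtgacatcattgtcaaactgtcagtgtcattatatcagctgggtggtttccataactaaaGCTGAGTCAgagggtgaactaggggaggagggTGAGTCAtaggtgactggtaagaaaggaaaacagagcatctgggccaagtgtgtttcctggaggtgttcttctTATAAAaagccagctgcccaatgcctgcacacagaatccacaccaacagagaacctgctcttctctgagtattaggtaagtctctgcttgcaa
Sprr1b: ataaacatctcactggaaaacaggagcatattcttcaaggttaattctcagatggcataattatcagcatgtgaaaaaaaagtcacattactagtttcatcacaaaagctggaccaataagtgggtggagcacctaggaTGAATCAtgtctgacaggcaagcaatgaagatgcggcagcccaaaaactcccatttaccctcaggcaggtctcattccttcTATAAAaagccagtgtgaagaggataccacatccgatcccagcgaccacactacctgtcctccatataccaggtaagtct
Lce1a2: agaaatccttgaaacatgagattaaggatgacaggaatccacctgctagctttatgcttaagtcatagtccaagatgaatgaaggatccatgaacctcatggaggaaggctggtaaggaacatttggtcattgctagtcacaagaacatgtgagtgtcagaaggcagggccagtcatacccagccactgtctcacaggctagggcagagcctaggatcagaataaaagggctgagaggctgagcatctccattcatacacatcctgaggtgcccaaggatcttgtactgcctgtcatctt
Sprr2a2: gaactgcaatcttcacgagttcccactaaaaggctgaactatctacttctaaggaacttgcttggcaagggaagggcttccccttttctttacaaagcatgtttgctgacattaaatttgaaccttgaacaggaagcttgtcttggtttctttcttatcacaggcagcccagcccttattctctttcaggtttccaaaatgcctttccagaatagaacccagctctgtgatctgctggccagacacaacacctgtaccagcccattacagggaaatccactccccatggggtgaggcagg

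The position of the 10 measured genes relative to 0 depended on the reference chosen. Lor lay between -1.33 and -1.06 and Sprr1a between -1.37 and -1.18 over the settings other than spike-ins. Sprr1b lay between 0.79 and 0.89, Lce1m between 0.84 and 0.99 and Lce1a2 between 0.60 and 0.88. Sprr2a2 differed by -2.01 with the mean over its measured probes. Spike-in RNA put every gene lower by 2.05, all 10 below -1, with Lor at -3.28, Sprr1a at -3.32 and Lce1m at -1.06. On that scale the median of all measured genes was -2.06. The shift is the same for every gene, so the place of a gene relative to the median gene cannot differ between these scales. Sprr1b and the measured Lce1 genes were above the median gene, and Lor, Crct1 and Sprr1a below it.

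**Figure D5:**
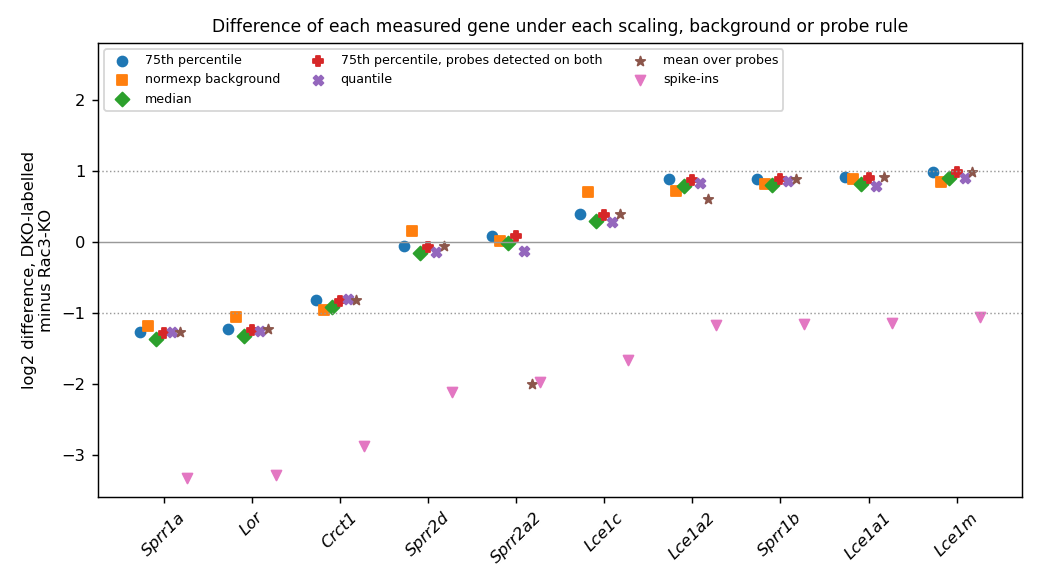
Log2 difference, DKO-labelled minus Rac3-KO, of each of the 10 measured genes, ordered by the 75th percentile value, under each scaling, background or probe rule (marker shapes). Markers of a gene lie close together except for spike-in scaling, which is lower by 2.05 for every gene, and for the mean over probes of Sprr2a2 at -2.01.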

How the data were processed

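RNA of P3 primary keratinocytes was read on 1 Agilent 1-colour array per genotype, both on the same slide and scan. The deposited scanner files hold spot intensity, made by the authors in Agilent Feature Extraction. Its version is 10.10.1.1 in the file headers and 9.1 in the submitters' processing notes. Signals were background-subtracted per the file headers, with detrending within each array and no scaling between arrays. The table of values the authors deposited holds log2 data: subtracting 1 constant per array from log2 processed signals returns it for 100% of 55249 probes spotted a single time, within 0.001. Its column medians are -3.72 and -3.62, its centring is near the 75th percentile, and its rows are levels, not ratios.

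Here, spots marked as outliers were dropped, remaining log2 signals were averaged per probe, and each array's 75th percentile over 55678 non-control probes was subtracted (Python 3.11.15, pandas 2.3.3). Accessions gave 26580 probes a gene name through RefSeq GRCm38.p6, used for names and order only, since the array design names an earlier build. A probe was well above background if most of its spots were. A gene was measured when its probe of highest mean level was so on both arrays. At-least folds divide the bright level by the dim probe's level or the array's lowest level well above background, whichever is higher. A call is a 2-fold difference; no test was run. Any gene of the set could be named, with up to 3 genes each way from other lists; Abca12, Cyp4f39, Pou2f3, Tgm1, the rest of the 5 complex genes and the Fos and Jun group go beyond that and were picked after values were seen. The members, the lists and the search motifs were chosen with earlier results of these data known. Alternatives were normexp (limma 3.58.1, offset 50, on the median spot signal, in place of the mean signal first planned), other scalings, filters, probe rules and fold thresholds. The scripts were tested on simulated data.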

Additional observations from a re-analysis of the deposited data

How the results depend on the processing

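Among recomputed counts and medians over the set, 66 stayed within 1.5 times the count or within the signal error of the median, and 14 moved further. Detection calls came from the scanner software and do not change with scaling or fold threshold. The counts of genes detected on both arrays or on a single array thus could not move under those settings, so the 66 overstates stability. With no filter on dim probes, all 37 genes counted as measured, 8 were higher and 6 lower (10.5% and 7.55% of all named genes at that setting), the counts on a single array were 0 and 0, and the median was 0.69 beside 0.14 for all genes; these include background signals. The stricter filter left 6 genes measured, 1 detected on the DKO-labelled array only and a median of -0.37. Spike-in scaling gave 10 lower genes, as for 93.0% of all measured genes, medians of -1.82 for the set and -1.16 for Lce1, and turned the Lce3c log2 bound to -0.71. At 1.5-fold 4 genes were higher and 3 lower (18.2% and 16.5% of all measured genes), and at 3-fold 0 were lower (2.23%). The share of higher genes among all at least 2-fold apart was 53.8%, and 43.6% with the median as the scale, 0.106% with spike-ins. No gene of the 10 changed sign under another setting except Sprr2a2, Sprr2d and, with spike-ins, those above 0. Dim probes limit what can be seen: only 6 of 37 genes had signals above 2 times the lowest signal well above background on both arrays. No paired analysis was possible because each genotype has 1 array.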
